A study of Mus musculus with 6 samples.

Results

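The 30 genes described here encode proteins that license replication origins, unwind and copy DNA, supply nucleotides and histones, or drive cells into S phase. They were taken by symbol from a list of S phase and DNA replication genes, and each was represented by its brightest array probe among those whose RefSeq accession maps to the gene. All 30 had a probe, out of 20284 genes named on the array. Of these, 29 were well above background (the scanner software's own flag) on all 6 arrays. The exception was Ccne2, the gene of cyclin E2, which was well above background on none. Its measured level ran between -6.47 and -4.90, and it was not tested.

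DNA replication starts when the origin recognition complex, Cdc6 and Cdt1 load the ring-shaped helicase made of Mcm2 to Mcm7 onto DNA in G1, a step called licensing. At the start of S phase Cdc45 and the GINS proteins join that helicase and turn it on, and primase, polymerases, the sliding clamp Pcna and ligase then copy both strands. E2F transcription factors, released when cyclin-dependent kinases phosphorylate the retinoblastoma protein, drive many of these genes together. Blood stem cells divide often in the fetal liver and are mostly quiescent in adult bone marrow, where S phase genes are commonly used as a readout of cycling.

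RNA was measured in mouse KSL cells, the c-Kit+ Sca1+ Lineage- fraction that holds the hematopoietic stem cells, on 1-colour Agilent arrays from 10 ng of total RNA. Adult bone marrow gave 2 KO arrays (CreERT with both Tif1b alleles floxed) and 2 WT arrays (CreERT with Tif1b w/w). Fetal liver gave 1 KO array (Tie2-Cre with Tif1b f/f) and 1 WT array (Tie2-Cre with Tif1b w/w). All samples were on a C57BL6 background, and every WT sample carries the same Cre as its KO. In replicate 1 of bone marrow the labels conflict. Title, genotype and cell fraction give WT and KO KSL cells, but 1 description line names Hp1aKD for the WT array and Hp1gKD for the KO array, both in c-Kit+ Lineage- cells. Pair 1 therefore rests on arrays with doubtful labels, and pair 2 is the result without them. In replicate 2 the genotype field has Tif2b instead, which was read as Tif1b, the gene listed as Trim28. Tie2-Cre is active in endothelial and blood cells, whereas CreERT acts only after tamoxifen. The promoter that drives CreERT, the time after induction and the fetal age are not given in the sources used here. Whether the replicates are separate animals is not stated, and the p-values could reflect technical spread alone.

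Levels are given as log2 signal over the 75th percentile signal of the same array, so a level of 0 equals that percentile. The 75th percentile was 325 and 743 in bone marrow KO, 281 and 737 in bone marrow WT, 211 in fetal liver KO and 219 in fetal liver WT. Each slide carried 1 KO and 1 WT array, so a slide is also a replicate pair. Trim28 was at 1.28 and 0.75 in bone marrow KO and 1.68 in fetal liver KO, against 5.55 in bone marrow WT replicate 2 and 5.97 in fetal liver WT. The array labelled bone marrow WT replicate 1 stood apart and is called the mismatched array from here on. Its scanner file and its column in the authors' deposited value table agreed within 1% for 1.40% of probes, against 100% for each of the other 5 arrays, counted over probes with a table ratio of at least 0.1. Its scanner file had Trim28 at 2.45 and Kit, the gene of the sorting marker c-Kit, at 1.30, whereas the table column had 5.18 and 4.16. Kit lay between 4.17 and 4.5 on the other 5 arrays. Of the 29 measured replication genes 26 were lower in that scanner file than in the table column, by a median difference of -0.64. The main counts are therefore given from both sources, and other values that draw on this array are from the table unless the scanner file is named.

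E2F sites near the transcription start are a known feature of this gene class, so the promoters of the group were searched for them. RefSeq promoter windows (build GRCm38.p6, 250 bases before to 50 after the start) were given for 25 of the 30 genes. The words TTTCCCGC, TTTCGCGC, TTTGCCGC and TTTGGCGC, on either strand and with overlaps allowed, occurred in 9 of these 25 genes (36%), against 704 of 27025 genes with a window (2.6%). The 9 were Cdc6, Cdt1, Mcm3, Mcm5, Mcm6 and Mcm7 of the licensing genes, and Clspn, Lig1 and Pola1. The CCAAT box, searched as CCAAT on either strand, occurred in 15 of the 25 (60%) and in 41.1% of all genes. A word match is only a match of letters and says nothing of binding. The 250 bases before the start are shown for 4 genes with E2F words in capitals: Mcm6, which has the most matches before the start, Cdc6 and Pola1, which have 1 match each and lay on opposite sides of 0 between the tissues, and Ccne1, which has none and differed most between the tissues. The windows are Mcm6, chr1:128359706-128359955, minus strand; Cdc6, chr11:98907901-98908150, plus strand; Pola1, chrX:93632156-93632405, minus strand; and Ccne1, chr7:38107491-38107740, minus strand. In Mcm6 the first bases of the matches lie at -110, -106 and -47, and the first pair of matches overlaps. In Cdc6 and in Pola1 the match starts at -138.
Mcm6: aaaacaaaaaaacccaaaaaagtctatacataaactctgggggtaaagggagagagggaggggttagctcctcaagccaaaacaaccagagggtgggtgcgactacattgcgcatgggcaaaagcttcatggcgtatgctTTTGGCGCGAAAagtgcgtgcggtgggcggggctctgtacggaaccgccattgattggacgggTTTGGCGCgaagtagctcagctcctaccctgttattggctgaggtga
Cdc6: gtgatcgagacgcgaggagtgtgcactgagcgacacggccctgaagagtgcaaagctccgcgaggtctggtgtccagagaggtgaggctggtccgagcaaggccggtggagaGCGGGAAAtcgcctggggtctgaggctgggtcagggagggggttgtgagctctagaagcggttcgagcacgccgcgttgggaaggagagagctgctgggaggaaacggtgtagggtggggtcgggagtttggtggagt
Pola1: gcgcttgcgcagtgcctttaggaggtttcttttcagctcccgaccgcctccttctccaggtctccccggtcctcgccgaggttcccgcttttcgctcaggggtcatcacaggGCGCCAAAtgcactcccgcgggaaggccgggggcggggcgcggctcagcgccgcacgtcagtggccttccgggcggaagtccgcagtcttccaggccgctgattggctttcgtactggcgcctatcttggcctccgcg
Ccne1: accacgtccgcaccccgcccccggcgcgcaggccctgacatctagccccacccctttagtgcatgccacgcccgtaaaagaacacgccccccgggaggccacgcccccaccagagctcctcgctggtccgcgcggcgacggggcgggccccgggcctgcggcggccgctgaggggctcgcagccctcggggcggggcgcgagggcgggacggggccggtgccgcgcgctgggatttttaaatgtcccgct

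In fetal liver the replication genes lay close together in KO and WT KSL cells. The 29 measured genes differed by -0.41 to 0.33 (KO minus WT, log2), with a median of -0.11 against -0.07 over all genes. Of the 29 genes, 20 were lower in KO, where 57.8% of all genes tested were lower. None of them reached a 2-fold difference, which 5.32% of all genes reached upward and 4.41% downward. There is 1 array per genotype in this tissue, so these differences have no replicate check and no test.

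Among the licensing genes in fetal liver, the loading factor Cdc6 was at 2.63 in KO and 2.34 in WT, and its partner Cdt1 at 6.57 in KO and 6.55 in WT. Of the helicase subunits, Mcm6 was at 8.56 on both arrays, and Mcm2, Mcm3, Mcm4, Mcm5 and Mcm7 differed by -0.16 to 0.11. This set showed no common direction, with 4 genes higher and 4 lower. The 5 genes of helicase activation and the moving fork were all lower in KO, with a median difference of -0.33. Gins2, a GINS subunit, was at 2.76 in KO and 3.17 in WT, the largest negative difference of the group. Gins1 was at 3.98 in KO and 4.32 in WT, and the fork checkpoint mediator Clspn at -0.85 in KO and -0.51 in WT. Mcm10, which helps to start the helicase, differed by only -0.03, and Cdc45 by -0.18. Of the 8 genes of DNA synthesis, 7 were lower in KO, with Rpa2, a subunit of the single-strand binding protein, at 3.13 in KO and 3.45 in WT. The exception was Dscc1, part of a clamp loader for sister chromatid cohesion, at 2.36 in KO and 2.24 in WT. Rrm2, the regulatory subunit of ribonucleotide reductase, had the largest positive difference, with 6.35 in KO and 6.02 in WT. Its partner Rrm1 differed by -0.07, and Tyms and Tk1, both enzymes of thymidylate supply, by -0.17 and -0.21. Ccne1, which encodes cyclin E1, the activator of Cdk2 at S phase entry, was at 5.27 in KO and 5.11 in WT. E2f1, an activating member of the E2F family, was at 3.55 in KO and 3.77 in WT.

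**Figure D1:**
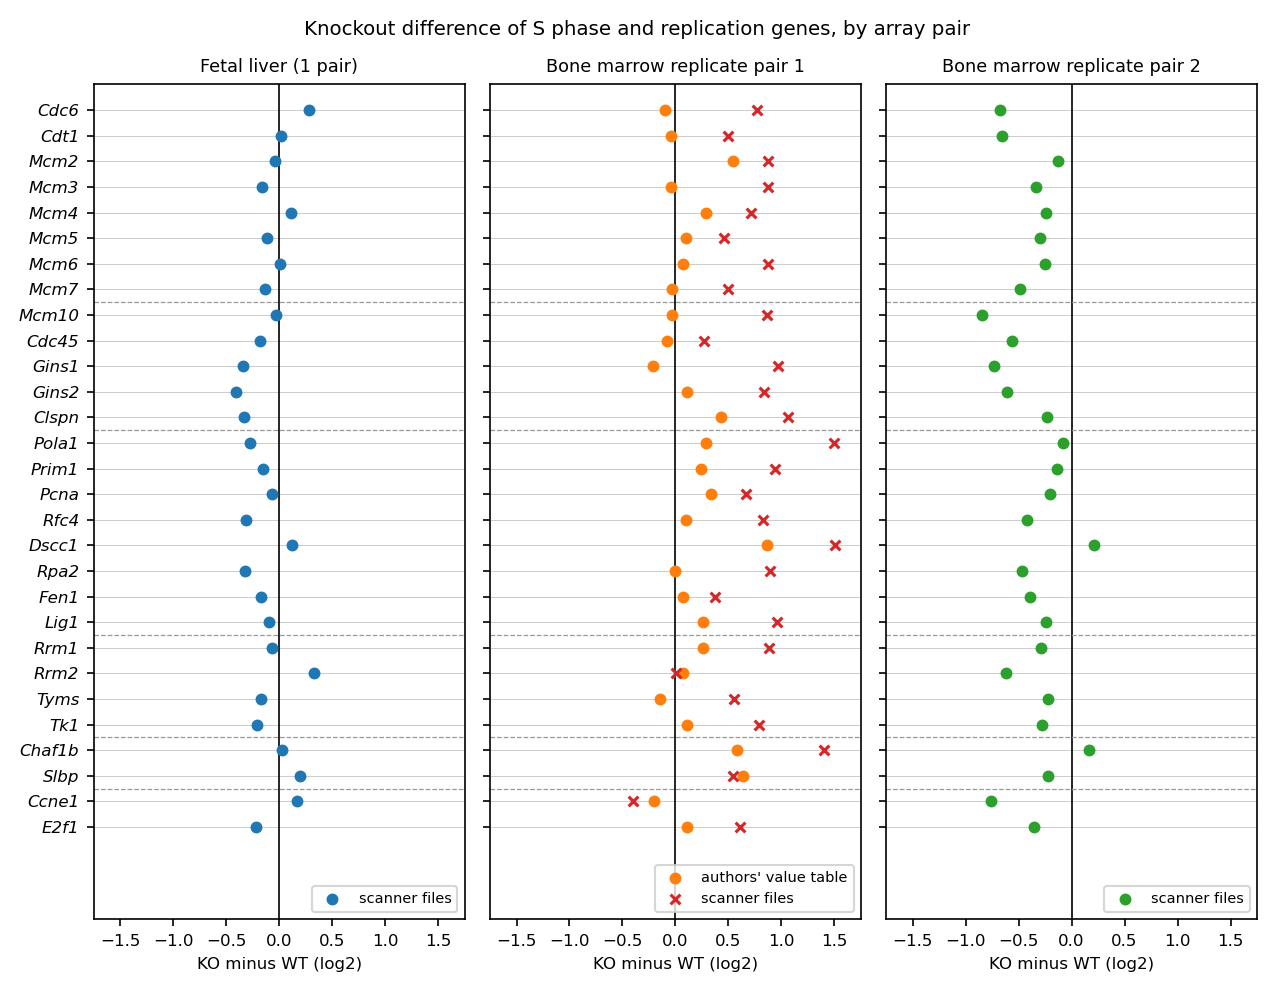
KO minus WT difference (log2, horizontal axis) of the 29 measured genes, ordered by role from licensing at the top to S phase entry at the bottom with dashed lines between roles, in the fetal liver pair and in bone marrow pairs 1 and 2. Pair 1 is drawn from the authors' value table (circles) and from the scanner files (crosses). Fetal liver values lie between -0.41 and 0.33, and 27 of 29 values in pair 2 lie left of 0.

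In bone marrow the 2 replicate pairs disagreed, and no replication gene passed the test between KO and WT. In pair 2, 27 of 29 genes were lower in KO, with a median difference of -0.29 against -0.09 over all genes, of which 58.8% were lower. In pair 1 taken from the value table, 10 of 29 were lower, with a median of 0.10 against 0.01 over all genes, of which 48.7% were lower. In pair 1 taken from the scanner files 1 of 29 was lower, with a median of 0.83 against 0.19 over all genes, of which 41.2% were lower. In that last comparison 4 genes exceeded a 2-fold difference upward (Pola1, Dscc1, Chaf1b and Clspn), as did 17.6% of all genes, and none went as far downward, as did 14.3% of all genes. No member differed by 2-fold in pair 1 of the table, where 6.23% of all genes were higher and 5.87% lower by that much, or in pair 2, where 6.21% and 4.72% were.

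The licensing genes had 8 of 8 members lower in KO in pair 2, where they differed by -0.67 to -0.13. Cdc6 was at 1.44 and 1.16 in KO, against 1.54 (table) or 0.67 (scanner file) in WT replicate 1 and 1.84 in WT replicate 2. Cdt1 was at 5.87 and 5.25 in KO, against 5.91 (table) or 5.37 (scanner file) and 5.91 in WT. Both KO values of Cdc6 and Cdt1 lay below both WT values of the table by the brightest probe. A second, dimmer Cdc6 probe differed by 0.25 in pair 1 of the table and by -0.41 in pair 2. With the scanner file both Cdc6 values and 1 of the 2 Cdt1 values lay within the WT range. Mcm2 was at 4.97 and 4.69 in KO, against 4.43 (table) or 4.09 (scanner file) and 4.81 in WT, so its groups overlapped in either source. Mcm6 was at 8.43 and 7.71 in KO, against 8.36 (table) or 7.55 (scanner file) and 7.96 in WT. Its KO range was wider than the difference between the group means in either source. The other MCM subunits had differences in pair 1 of the table of -0.05 (Mcm3), 0.29 (Mcm4), 0.09 (Mcm5) and -0.03 (Mcm7), and in pair 2 of -0.33, -0.24, -0.29 and -0.48 in the same order.

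Mcm10, a helicase activation gene, had the lowest difference of pair 2. Mcm10 was at 4.23 and 3.15 in KO, against 4.26 (table) or 3.36 (scanner file) and 4.0 in WT. Gins1 was at 3.90 and 3.05 in KO, against 4.12 (table) or 2.93 (scanner file) and 3.78 in WT. For both genes KO replicate 1 lay near the upper WT values and KO replicate 2 near or below the lowest. Cdc45 differed by -0.08 in pair 1 of the table and -0.56 in pair 2, Gins2 by 0.11 and -0.61, and Clspn by 0.43 and -0.23.

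Among DNA synthesis genes Dscc1 was the only one higher in KO in pair 2, with 2.55 and 1.45 in KO, against 1.68 (table) or 1.04 (scanner file) and 1.23 in WT. Pola1, the catalytic subunit of the primase-coupled polymerase, was at 4.55 and 3.78 in KO, against 4.26 (table) or 3.06 (scanner file) and 3.86 in WT. Pola1 had the largest gap of the group between the table and the scanner file, so that its pair 1 difference was 1.49 from the scanner files, against 0.29 by the value table. Pcna, the sliding clamp, was at 7.37 and 6.45 in KO, against 7.03 (table) or 6.70 (scanner file) and 6.65 in WT. The primase subunit Prim1, the clamp loader subunit Rfc4, Rpa2, the flap nuclease Fen1 and the ligase Lig1 differed in pair 1 of the table by -0.01 to 0.26 and in pair 2 by -0.47 to -0.14. None of these 5 went the same way by more than 0.05 in both pairs of the table.

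In the remaining roles Rrm2 was at 5.30 and 4.49 in KO, against 5.23 (table) or 5.29 (scanner file) and 5.11 in WT. Rrm1, Tyms and Tk1 differed by 0.26, -0.15 and 0.11 in pair 1 of the table and by -0.29, -0.22 and -0.27 in pair 2. Chaf1b, a subunit of the assembly factor that places histones behind the fork, was at 6.33 and 5.80 in KO, against 5.75 (table) or 4.93 (scanner file) and 5.64 in WT. It lay higher on both KO arrays than on either WT array in both sources. Slbp, which binds the stem-loop of histone mRNAs, was at 2.40 and 1.91 in KO, against 1.76 (table) or 1.85 (scanner file) and 2.13 in WT. Ccne1 was at 3.29 and 2.57 in KO, against 3.49 (table) or 3.69 (scanner file) and 3.33 in WT, and lay lower on both KO arrays than on either WT array in both sources. E2f1 was at 3.59 and 3.06 in KO, against 3.48 (table) or 2.98 (scanner file) and 3.41 in WT.

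Over both bone marrow pairs, limma's moderated test with Benjamini-Hochberg adjustment over all genes called 0 of 29 genes in the value table, where 0.876% of all genes were called, and 0 of 29 in the scanner files, where 0 of 13010 genes were called. At an unadjusted p under 0.05 none of the 29 passed in either source, against 1411 of 12783 genes in the table and 548 of 13010 in the scanner files. The smallest adjusted p of a member was 0.774 in the table, for Ccne1, which differed by -0.48 ± 0.33 (SE, n = 2 arrays per genotype, 95% interval -1.30 to 0.34). Cdc6 differed by -0.39 ± 0.27 (-1.06 to 0.29) and Mcm10 by -0.44 ± 0.41 (-1.47 to 0.59) in the table. Chaf1b differed by 0.37 ± 0.29 (-0.35 to 1.1) and Dscc1 by 0.54 ± 0.43 (-0.54 to 1.62) in the table. From the scanner files the differences were -0.58 ± 0.44 for Ccne1, 0.05 ± 0.52 for Cdc6, 0.01 ± 0.54 for Mcm10, 0.78 ± 0.45 for Chaf1b and 0.86 ± 0.50 for Dscc1, so Cdc6 and Mcm10 differed in sign between the sources. All 5 intervals of the table reach past a 2-fold difference, so the arrays do not show that KO and WT were alike. With the replicate pair, which is the slide, as a block, 0 of 29 members were called, and the smallest adjusted p was 0.223 in the table, where 7.67% of all genes were then called.

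By the brightest probe, the KO and WT arrays of the table did not overlap for Ccne1, Cdc6, Cdt1 and Tyms, which were lower in KO, or for Chaf1b, which was higher. Over all genes 19.6% were lower and 17.6% higher without overlap, so the members' counts were no higher than the background. By the scanner files, Ccne1 was lower and Chaf1b and Dscc1 were higher without overlap, against 13.1% and 15.4% of all genes. The direction of the group depended on which array was left out. In the table, 27 of 29 genes had a negative difference without KO replicate 1, with a median of -0.43, and 5 of 29 without KO replicate 2, with a median of 0.21. In the scanner files 5 of 29 had a negative difference with all arrays and 17 of 29 without the mismatched array.

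**Figure D2:**
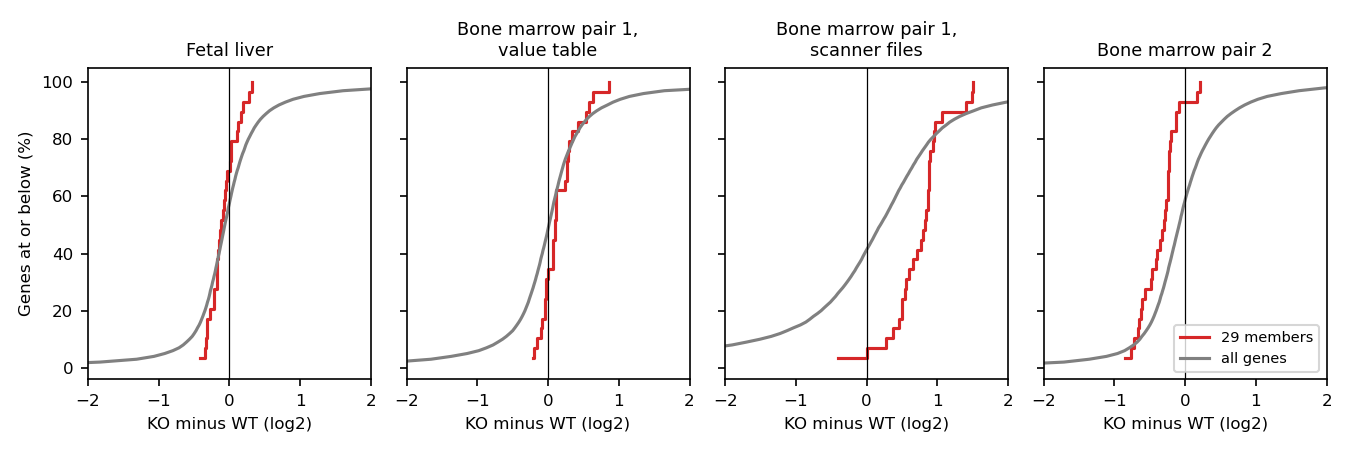
Cumulative share of genes (vertical axis, percent) at or below a KO minus WT difference (log2, horizontal axis) for the 29 measured members (red) and for all genes above background on at least 1 array of the pair (grey, percentiles 1 to 99), by array pair. The members lie left of all genes in bone marrow pair 2 (medians -0.29 and -0.09), right of them in pair 1 of the scanner files (0.83 and 0.19), and near them in fetal liver (-0.11 and -0.07).

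Signal level moved with these differences in fetal liver, in pair 2 and in pair 1 of the scanner files, and not clearly in pair 1 of the table. Of the 29 members, 19 belonged to the brightest 20% of genes measured in pair 2 of the scanner files, and over all genes of that 20% the median KO minus WT difference was -0.18, with 74.8% of genes lower. In pair 1 of the table the brightest and the dimmest 20% both had a median of -0.03, on the other side of 0 from the members' 0.10. In pair 1 of the scanner files the median was -0.39 in the dimmest 20% and 0.31 in the brightest 20%, against 0.83 for the members. The brightest 20% in fetal liver had a median of -0.11, the same as the members. The split by level was chosen after the members' values were seen, and the part of signal level in the KO differences was not tested.

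Other genes of replication and of the cell cycle followed the same split between the pairs. Of 56 further replication genes, 51 were lower in KO in pair 2 and 20 in pair 1 of the table, with medians of -0.38 and 0.10. Of 20 G2 and mitosis genes, 20 were lower in pair 2 and 3 in pair 1 of the table, with medians of -0.38 and 0.26. None of the 56 or of the 20 was called in either source. Those with the largest differences of 1 sign in both pairs of the table were the primase subunit gene Prim2 (-1.24 ± 0.46), the helicase gene Recql4 (-0.58 ± 0.39), the ribonuclease H2 subunit gene Rnaseh2a (-0.39 ± 0.30) and Ticrr (-0.38 ± 0.28), whose product helps to recruit Cdc45. For mitosis they included Aurkb (-0.77 ± 0.27), a kinase of the chromosomal passenger complex. From the scanner files Aurkb differed by -0.52 ± 0.45 and Recql4 by -0.05 ± 0.52, while Prim2 (0.82 ± 1.27), Rnaseh2a (0.15 ± 0.47) and Ticrr (0.03 ± 0.49) turned in sign. Prim2 was also 1.16 in KO and 3.75 in WT in fetal liver, a difference of -2.59 without replicates.

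Of 25 regulators of S phase entry none was called either. Myc, a transcription factor gene that promotes entry into the cycle, was at 2.20 and 1.68 in bone marrow KO, against 4.07 (table) and 4.08 in WT, a difference of -2.13 ± 0.29 that just missed the threshold (limma adjusted p = 0.0504). Its relative Mycn was at 3.16 and 3.5 in KO, against 0.96 (table) and 1.84 in WT (1.93 ± 0.37, adjusted p = 0.115). In the scanner files Myc differed by -1.02 ± 0.81 and Mycn by 2.87 ± 0.96, both with adjusted p = 1.00. The cyclin-dependent kinase inhibitor gene Cdkn1c (1.36 ± 0.37) and Rbl2, a relative of the retinoblastoma gene (0.95 ± 0.36), were higher on both KO arrays than on both WT arrays of the table, and differed by 1.89 ± 0.60 and 0.40 ± 0.40 in the scanner files.

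Markers of other cells differed between the same arrays. The summed linear signal of 9 measured neutrophil and granulocyte genes was 421 and 53.5 times the 75th percentile in bone marrow KO, against 2295 (table) or 1696 (scanner file) and 1181 in WT. The sum of 7 monocyte, macrophage and dendritic genes was 33.2 and 35.9 in KO, against 168 (table) or 652 (scanner file) and 97.5 in WT. All 9 neutrophil genes and at least 6 of the 7 monocyte genes were above background on every bone marrow array. The sum of 7 erythroid genes was 71.2 and 11.5 in KO, against 5.88 (table) or 417 (scanner file) and 7.55 in WT. Of these 7, 6 were at least 2-fold higher in KO in pair 1 of the table, with a median difference of 2.78. In pair 2, 3 of 6 measured were at least 2-fold higher and 1 was lower by that much, with a median of 0.75. In pair 1 of the scanner files 2 of 7 were at least 2-fold higher and 5 lower, with a median of -1.52. The sum of 7 megakaryocyte genes was 224 and 246 in KO, against 123 (table) or 0.564 (scanner file) and 104 in WT. B lymphoid genes summed to 378 in the scanner file of the mismatched array and to between 14.5 and 38.9 in the other bone marrow values. The part of these cells in the differences of the replication genes was not tested, and in bulk RNA fewer cells of a type and less RNA per cell cannot be told apart.

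The KO difference in bone marrow was also set against that in fetal liver, as an interaction over all 6 arrays that takes the lone fetal liver arrays to vary like the bone marrow arrays. No member and no other gene was called in either source. At an unadjusted p under 0.05, 948 of 13496 genes passed in the table and 351 of 13658 in the scanner files. The members' difference of differences had a median of 0.02 in the table, with 17 of 29 higher, and of 0.34 in the scanner files, with 24 of 29 higher, against 0.02 and 0.12 over all genes. In the table it ran from -0.67 ± 0.47 for Cdc6, with a 95% interval of -1.87 to 0.53, to 0.43 ± 0.49 for Clspn, with an interval of -0.81 to 1.68. From the scanner files it was -0.23 ± 0.92 for Cdc6 and 0.75 ± 0.85 for Clspn. Cdc6, Cdt1 and Ccne1 were higher in KO in the fetal liver pair and lower in KO in both bone marrow pairs of the table by the brightest probe, but none of these contrasts passed. The dimmer probes of Cdc6 and Ccne1 did not share this pattern, with Cdc6 at 0.25 in pair 1 of the table and Ccne1 at -0.36 in fetal liver.

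Between tissues, replication genes were mostly lower in adult bone marrow than in fetal liver KSL cells, and Ccne1 had the largest difference. With tissue and genotype as terms of 1 model of the 6 arrays, 25 of 29 genes were lower in bone marrow in either source. The median difference was -0.44 in the table, against -0.26 over all genes, of which 63.2% were lower. It was -0.60 in the scanner files, against -0.30 over all genes, of which 64.7% were lower. Of the 29 genes, 4 were called lower and 0 higher in the table, where 14.0% of all genes were called lower and 8.93% higher. None of the 29 was called in the scanner files, where 2.10% of all genes were. The share of members called in the table is therefore close to the background share.

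Ccne1 was at 3.29 and 2.57 in bone marrow KO, 3.49 (table) or 3.69 (scanner file) and 3.33 in bone marrow WT, 5.27 in fetal liver KO and 5.11 in fetal liver WT. Every bone marrow array lay below both fetal liver arrays, by more than the spread within bone marrow. In the table it fell by 2.02 ± 0.29 (SE, n = 4 bone marrow and 2 fetal liver arrays), a 4.05-fold difference, with limma adjusted p = 0.0114. From the scanner files, at -1.97 ± 0.35, it missed the threshold (adjusted p = 0.0627). A second, dimmer Ccne1 probe differed by only -0.26 in the table, so the size of the Ccne1 difference rests on the brighter probe.

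**Figure D3:**
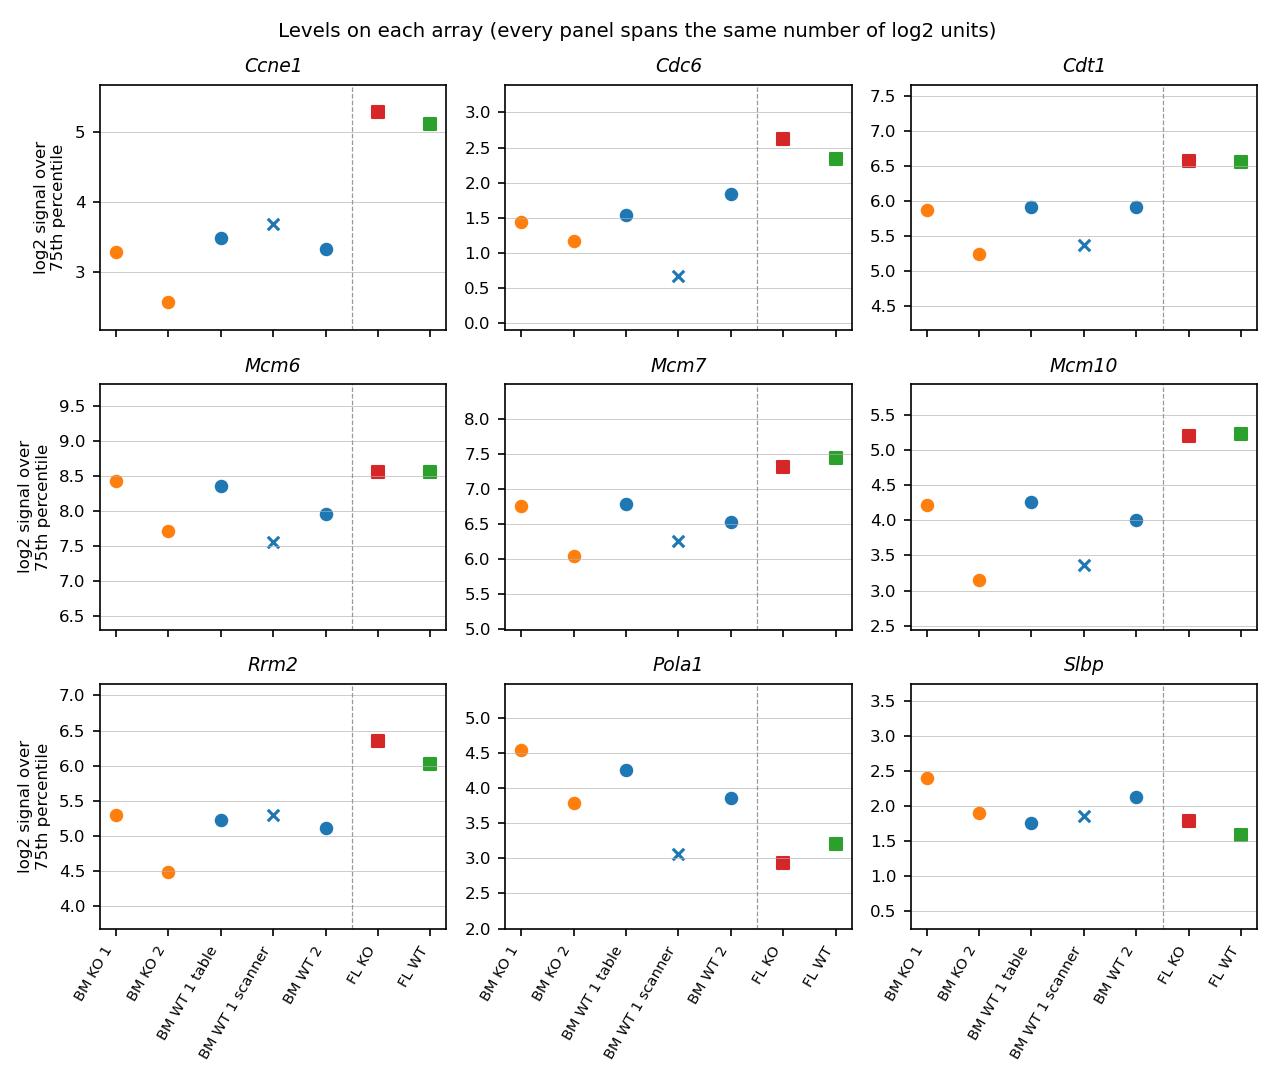
Level of 9 genes (log2 signal relative to the array's 75th percentile, vertical axis) on the bone marrow (BM) KO and WT arrays and the fetal liver (FL) KO and WT arrays, with the mismatched array drawn from the table (circle) and from the scanner file (cross). All bone marrow values of Ccne1, Cdc6, Mcm10 and Rrm2 lie below both fetal liver values, and those of Pola1 in the table lie above them.

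Mcm10 was at 4.23 and 3.15 in bone marrow KO, 4.26 (table) or 3.36 (scanner file) and 4.0 in bone marrow WT, 5.20 in fetal liver KO and 5.23 in fetal liver WT. It fell by 1.31 ± 0.34 in the table (adjusted p = 0.0474). Rrm2 fell by 1.15 ± 0.30 (adjusted p = 0.0462), with bone marrow levels of 4.49 and 5.30 in KO and of 5.11 and 5.23 in WT of the table, against 6.35 in fetal liver KO and 6.02 in fetal liver WT. Cdc6 fell by 0.99 ± 0.24 (adjusted p = 0.0402), and its second probe differed by -1.03. For Mcm10, Rrm2 and Cdc6 all 4 bone marrow arrays lay below both fetal liver arrays in either source. Their calls in the table were fragile. With the slide as a random block (within-slide correlation 0.449) only Ccne1 was still called, where 3.40% of all genes were called lower. With quantile normalization Ccne1 was called lower and Pola1 higher, and with scaling to the array median only Ccne1 was called.

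All 8 licensing genes were lower in bone marrow, by -0.29 (Mcm2) to -0.99 (Cdc6) in the table. Cdt1, with -0.82 ± 0.24, and Mcm7, with -0.85 ± 0.26, came closest to the threshold among those not called (adjusted p = 0.0620 and 0.0663). Mcm3, Mcm4, Mcm5 and Mcm6 differed by -0.48, -0.38, -0.66 and -0.44. All 8 had every bone marrow array below both fetal liver arrays in either source. Over the 29 members 18 did so in the table and 19 in the scanner files, against 36.8% and 33.7% of all genes. In the other direction Clspn and Pola1 did so in the table and Slbp in the scanner files, against 17.9% and 12.9% of all genes.

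The genes of the moving fork and of DNA synthesis shared that order only in part. Mcm10, Rfc4, Rpa2, Fen1 and Lig1 had every bone marrow array below both fetal liver arrays in either source, and Gins1 in the scanner files only. Of the 8 DNA synthesis genes 7 were lower in bone marrow, and of the 5 fork genes 3 were. Gins1 and Gins2 differed by -0.44 and -0.42 in the table, Cdc45 by 0.12 and Clspn by 0.50. Pola1 was at 4.55 and 3.78 in bone marrow KO, 4.26 (table) or 3.06 (scanner file) and 3.86 in bone marrow WT, 2.93 in fetal liver KO and 3.21 in fetal liver WT. It was the member with the largest positive difference, at 1.05 ± 0.29 in the table, a 2.07-fold difference that just missed the threshold (adjusted p = 0.0539, 95% interval 0.32 to 1.77). It was 0.75 ± 0.43 in the scanner files, and its groups overlapped because of the mismatched array. Prim1, whose product forms a complex with that of Pola1, went the other way at -0.28 ± 0.31. Pcna, Rpa2, Fen1, Lig1, Rfc4 and Dscc1 differed by -0.58 to -0.27. The dimmer Rfc4 probe differed by 0.11, so the probes of Rfc4 disagree in sign.

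Among the suppliers, Tyms (-0.49 ± 0.17), Tk1 (-0.43 ± 0.26) and Rrm1 (-0.27 ± 0.20) lay lower in bone marrow without passing. The genes of histone supply differed in sign, with Chaf1b at -0.20 ± 0.23 and Slbp at 0.36 ± 0.23. E2f1 differed by -0.27 ± 0.22. Taken within each genotype, bone marrow minus fetal liver in the table was -2.34 in KO and -1.7 in WT for Ccne1, -1.32 in KO and -0.65 in WT for Cdc6, and -1.51 in KO and -1.1 in WT for Mcm10. It was -1.45 in KO and -0.85 in WT for Rrm2, and 1.24 in KO and 0.86 in WT for Pola1. The WT values from the scanner files were -1.6 for Ccne1, -1.09 for Cdc6, -1.55 for Mcm10, -0.82 for Rrm2 and 0.26 for Pola1. For these 5 genes both genotypes had the same sign, and the interaction passed for none of them.

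**Figure D4:**
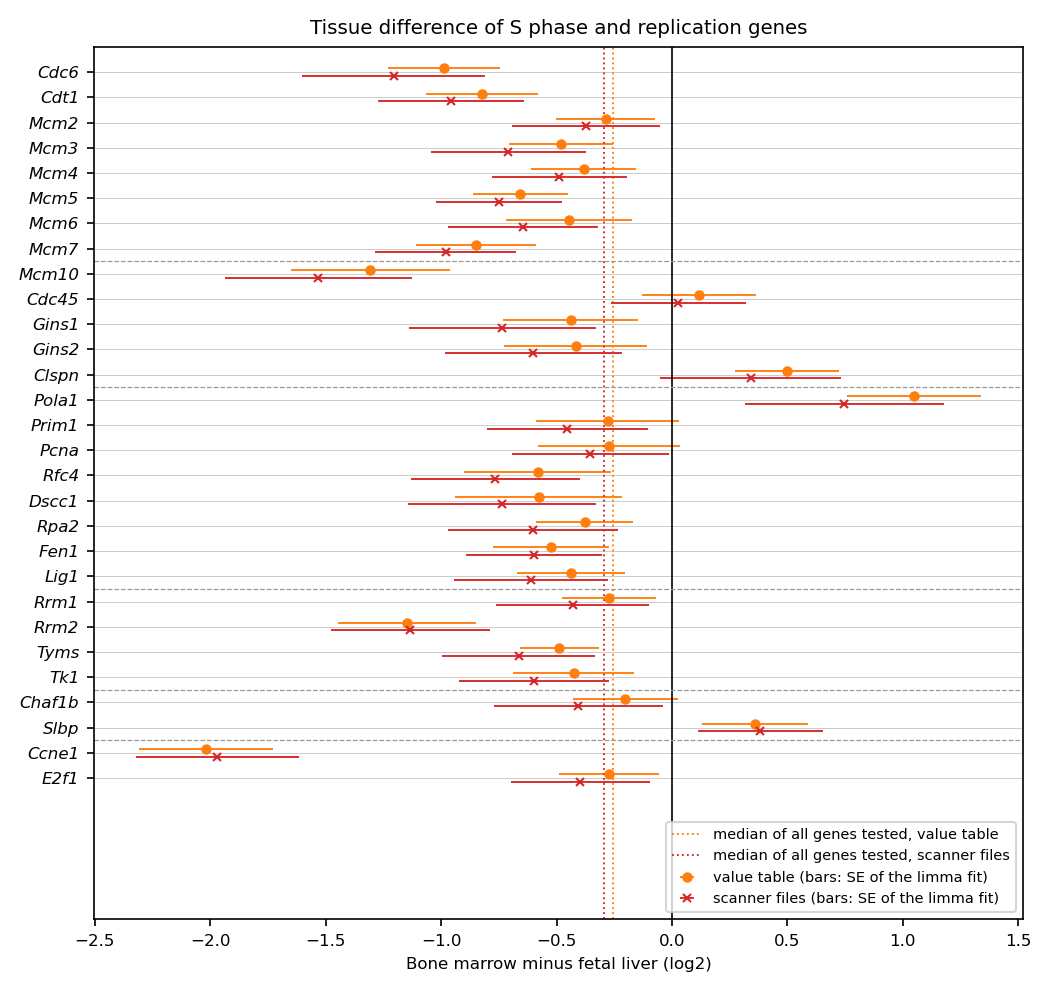
Bone marrow minus fetal liver difference (log2, horizontal axis) of the 29 measured genes, from the value table (circles) and the scanner files (crosses), with bars for the standard error of the limma fit and dotted lines at the median of all genes tested. In both sources 25 genes lie left of 0 and Cdc45, Clspn, Pola1 and Slbp lie right of it, and Ccne1 lies lowest at -2.02 in the table and -1.97 in the scanner files.

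The lower level of the group in bone marrow was shared by bright genes at large. In all, 19 of the 29 members were among the brightest 20% of genes tested in the table, where the median tissue difference of all genes was -0.50 and 84.4% of genes were lower. The median of those 19 members was -0.44, and 8 of them lay below the median of that 20%. From the scanner files the brightest 20% had a median of -0.57 over all genes and -0.63 over its 18 members, of which 12 lay below that median of all genes. In the following 20% steps, from bright to dim, 3 of 4, 2 of 3 and 1 of 3 members lay below their step's median in the table. In the scanner files these counts were 4 of 5, 2 of 3 and 1 of 3. The dimmest 20% held no member. With quantile normalization, which gives every array the same distribution, 16 of 29 members were lower in the table, with a median of -0.01, and 18 of 29 in the scanner files. Scaling to the array median moved the median of all genes to -0.01 in the table and left the members' median at -0.20. Under that scaling 24 of 29 members were lower in the table, so the common direction of the group was kept there and was lost with quantile normalization. Ccne1 was called lower in the table under each of these settings and under the others tried.

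Further genes of replication and of S phase control were called between the tissues in the table. Of 56 further replication genes 15 were higher and 41 lower in bone marrow, with a median of -0.28. Of these, 3 were called higher and 4 lower. Those called lower included Cdc7 (-1.64 ± 0.34), the kinase that fires licensed origins, and Uhrf1 (-1.39 ± 0.29), which guides methylation of newly made DNA. The others called lower were the nuclease and helicase gene Dna2 (-0.99 ± 0.20) and Chtf8 (-0.91 ± 0.21), whose product works in a clamp loader with that of Dscc1. Those called higher were the MCM relative Mcm9 (1.66 ± 0.25), Rrm2b (1.67 ± 0.37), a ribonucleotide reductase subunit induced by p53, and the origin recognition subunit gene Orc4 (0.80 ± 0.20). Mcm9 was also called in the scanner files (1.72 ± 0.26, adjusted p = 0.0491).

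Of 25 regulators of S phase entry, 10 were higher and 15 lower in bone marrow in the table, with a median of -0.25. Of these, 5 were called higher and 2 lower. Cdkn2c, which encodes an inhibitor of Cdk4 and Cdk6, was at 2.42 and 2.09 in bone marrow KO and 1.60 (table) and 1.66 in bone marrow WT, against -1.55 in fetal liver KO and -1.68 in fetal liver WT. It rose by 3.56 ± 0.21 in the table (adjusted p = 0.00176) and by 3.74 ± 0.31 in the scanner files (adjusted p = 0.0222). The retinoblastoma gene Rb1 (0.94 ± 0.20) and its relatives Rbl1 (1.04 ± 0.22) and Rbl2 (1.17 ± 0.30) were called higher, as was Cdk6 (1.22 ± 0.23). Cdc25a, the phosphatase gene that activates Cdk2 (-1.14 ± 0.19), and Cdkn1c (-1.68 ± 0.33) were called lower. Of 20 G2 and mitosis genes, 6 were higher and 14 lower. Top2a was called higher (1.04 ± 0.22), and the mitotic genes Kif20a (-1.35 ± 0.33), Aurka (-1.14 ± 0.29) and Plk1 (-1.11 ± 0.23) were called lower. In the scanner files Mcm9 and Cdkn2c were the only genes called in these 3 lists. For these lists too, 22.9% of all genes were called in the table in one direction or the other.

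Tissue could not be told apart from slide or Cre, since fetal liver lay on 1 slide of its own and carried Tie2-Cre. Markers of other cells moved with tissue as well. The summed signal of 6 hepatocyte genes was 0.678 and 0.523 times the 75th percentile in bone marrow KO, 3.44 (table) or 0.220 (scanner file) and 2.51 in bone marrow WT, 2.05 in fetal liver KO and 10.1 in fetal liver WT. Of the 6, 1 or 2 were above background on each bone marrow array, 3 in fetal liver KO and 5 in fetal liver WT. The hepatocyte marker Alb lay between -6.95 and -5.78 on the bone marrow arrays, at -2.19 in fetal liver KO and at -0.42 in fetal liver WT. All 5 hepatocyte genes tested between the tissues were lower in bone marrow in either source. In the table all 5 were called lower, where 14.0% of all genes were. In the scanner files 2 were, where 168 of 13658 genes were. Afp, of the same list, was lower in bone marrow within each genotype, but its levels overlapped between the tissues across genotypes. It was at -0.80 and -1.25 in bone marrow KO and 1.73 (table) or -2.71 (scanner file) and 1.26 in bone marrow WT. In fetal liver Afp was at 0.12 in KO and 2.89 in WT. The sum of 9 neutrophil and granulocyte genes was 53.5 to 421 in bone marrow KO, 1181 to 2295 in bone marrow WT in the table, 3319 in fetal liver KO and 3744 in fetal liver WT. All 7 megakaryocyte genes were higher in bone marrow in the table (median 2.73). Of them, 5 were called, where 8.93% of all genes were called higher. In the scanner files 6 of the 7 megakaryocyte genes were higher and none was called. Their sum was 224 and 246 in bone marrow KO, 123 (table) or 0.564 (scanner file) and 104 in bone marrow WT, 19.0 in fetal liver KO and 17.7 in fetal liver WT. Of 7 erythroid genes, 6 were lower in bone marrow in either source. The median over the 7 was -2.37 in the table and -1.84 in the scanner files. Of them, 3 were called lower in the table, where 14.0% of all genes were. None of the 7 was called in the scanner files. The erythroid sum was 200.7 in fetal liver KO and 84.9 in fetal liver WT. Ly6a, which encodes the sorting marker Sca-1, was at 3.60 and 6.04 in bone marrow KO, 3.36 (table) or 4.48 (scanner file) and 4.75 in bone marrow WT, 0.77 in fetal liver KO and 0.31 in fetal liver WT. The part of these cells in the tissue differences of the replication genes was not tested.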

How the data were processed

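Per the labels' protocols, total RNA of 6 samples was labelled with Cy3 and hybridised to Agilent arrays. Per the file headers, the deposited intensity of each of 62976 spots is background-corrected (gProcessedSignal). The software was Agilent Feature Extraction, version 10.7.1.1, according to the submitters' processing notes. The authors' deposited value table holds a linear ratio per probe. Set against the scanner signals, the ratio was the signal divided by about the array's 75th percentile, with no centring of genes and the same direction. The table's column medians were 0.0560 and 0.0640 for bone marrow KO, 0.0570 and 0.0630 for bone marrow WT, 0.0709 for fetal liver KO and 0.0705 for fetal liver WT. For bone marrow WT replicate 1 the column did not match the scanner file, so its scale is taken from the other 5.

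Values were log2 of the signal minus the array's 75th percentile, and log2 of the ratio likewise. Control and outlier spots were left out and spots of a probe averaged. RefSeq accessions named 26762 of 55681 probes, for 20284 genes, each represented by its brightest probe. 5 members had several probes. A gene entered the tests if its probe was flagged above background throughout at least 1 group. In the mismatched column a level of -3.7 replaced the flag, which matched 99.1% of the flags on the KO array of the same slide. Tests used limma 3.58.1 (lmFit, eBayes) in R 4.3.3 with data.table, version 1.17.8, over all genes, with Benjamini-Hochberg adjusted p under 0.05, and were tested on simulated data. The normexp alternative (offset 50) used median signals, since the files hold no mean signal column. Fetal liver has 1 array per genotype and no test. The number of arrays limits the precision.

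The 2 bone marrow pairs each share a slide per the file headers. The deviations of same-numbered arrays from their group means correlated at 0.561 in the table and 0.0468 in the scanner files, and results with the pair as a block are given. The members and gene lists were chosen with earlier results of these data known. All 30 members are named. Of the other lists, called genes are named, or up to 4 with the largest difference of 1 sign in both bone marrow pairs. Alternatives were background correction, scaling, filter, probe choice, block and leaving out each bone marrow array.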

Additional observations from a re-analysis of the deposited data

How the results depend on the processing

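No member was called between KO and WT of bone marrow, or in the interaction, under any alternative run. With the replicate block the count of members called stayed at 0 in both sources. Between tissues in the table, 4 members were called. The count was 2 with quantile normalization (Ccne1 lower, Pola1 higher), 1 with scaling to the array median, 1 with no filter on dim probes, 1 with the slide as a random block and 7 with a filter on all arrays. Leaving out 1 bone marrow array gave 1 to 2 members. In the scanner files it was 0, or 1 (Ccne1, -2.10, adjusted p = 0.0333) without the mismatched bone marrow WT array. The cause of these shifts was not tested. Over its alternatives the adjusted p of Cdc6 in the table ran from under the threshold to 0.144 and that of Mcm10 to 0.125.

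Signs turned in all 3 comparisons. With quantile normalization the tissue difference turned for 9 of 29 members in the table and 7 in the scanner files. Without KO replicate 1 the interaction turned for 15 members in the table and 8 in the scanner files, and the bone marrow KO difference for 8 and 15. With 1 bone marrow array left out, Cdc6 ran from -0.53 to 0.63 in the scanner files (negative without replicate 1 of WT or of KO). In the table Dscc1 ran from -0.010 to 1.09 (negative without KO replicate 1) and Pola1 from -0.28 to 0.49 (negative without KO replicate 1 or WT replicate 2). The median over members in pair 1 was 0.10 in the table, against 0.83 in the scanner files. The other alternatives moved the medians of fetal liver and of both pairs by less than the spread between the pair medians of the table (SD 0.28), a value from only 2 pairs. The slide as a random block could not be fitted for the interaction. With 2 arrays per genotype in bone marrow and 1 in fetal liver, the number of arrays limits every test, and Ccne2 was too dim to measure.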
